A study of Mus musculus with 5 samples.

Results

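Keratins are the intermediate filament proteins of epithelial cells, and the genes examined here are all rows of the deposited expression table whose name is Krt followed by digits only, 47 of 23284 genes. They were read in whole primary melanomas of the mouse that grew in the skin, and the labels do not say whether adjoining skin was trimmed away. The tumors grew from B16F1 cells, a mouse melanoma line of the C57BL/6 strain, or from B16F1-CXCL5 cells, which overexpress the neutrophil-attracting chemokine CXCL5. Both kinds of cell grew within the skin of the flank in C57BL/6 J mice, and every tumor was taken at a volume between 250 and 350 mm³ and frozen. The labels name no treatment. The B16F1 group had 3 libraries and the B16F1-CXCL5 group had 2. The labels give no age of the mice. They leave unsaid whether the overexpressing cells were a single clone and whether libraries came from different animals, so a p-value covers only the spread between these samples, which may be technical.

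A keratin filament is built from pairs of a type I (acidic) and a type II (basic) protein, and each layer of skin is known for its own pair. Krt5 and Krt14 form the filaments of basal keratinocytes, and Krt1 and Krt10 replace them when cells move up and differentiate. Krt16, Krt17 and the Krt6 genes are known from the outer root sheath of hair and from wounded or hyperproliferative epidermis. Other keratins build the inner root sheath and the hair shaft, and Krt8 and Krt18 form the filaments of simple epithelia. Of the 47 genes, 25 are type I, 21 are type II and Krt222, a keratin-like gene, was given no type. GENCODE M21 places 46 of them on GRCm38, with 25 on chromosome 11 and 21 on chromosome 15, the latter including the type I gene Krt18 beside Krt8.

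Values are given in the order B16F1 libraries 1, 2 and 3 against B16F1-CXCL5 libraries 1 and 2. In whole tumors, fewer keratinocytes and less keratin RNA per keratinocyte cannot be told apart. Levels are in FPKM, fragments scaled by transcript length and by library size. Defining genes of melanoma were high in every library, where 12 melanocyte lineage genes summed to between 10700 and 14600 FPKM. Cxcl5 was at 1.86, 3.62 and 1.01 FPKM in B16F1 libraries 1, 2 and 3 and at 83.7 and 85.4 FPKM in B16F1-CXCL5 libraries 1 and 2. The low values implied a depth of 26900000 to 28800000 fragments per library. B16F1 library 3 stood apart from the other libraries in keratins and other genes of skin. The limma results of the keratins and the sums of their main classes are therefore given with and without it. Other gene lists are given only with it.

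Some keratin genes are close copies, and the sequences below are shown because they bear on how far Krt16 and the Krt6 genes, which varied most, can be read apart. The longest run shared by the coding parts of Krt14 and Krt16 is 134 nt, in exon 1 of both genes, at chr11:100207017-100207150 for Krt14 and chr11:100248476-100248609 for Krt16, both on the minus strand of GRCm38. The longest run shared by Krt6a and Krt6b is 280 nt, in exon 1 of both, at chr15:101693936-101694215 and chr15:101679911-101680190 on the minus strand. Each is printed 5′ to 3′ with no base marked.
Krt14 and Krt16: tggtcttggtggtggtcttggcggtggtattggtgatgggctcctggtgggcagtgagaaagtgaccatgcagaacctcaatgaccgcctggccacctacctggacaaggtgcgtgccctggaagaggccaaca
Krt6a and Krt6b: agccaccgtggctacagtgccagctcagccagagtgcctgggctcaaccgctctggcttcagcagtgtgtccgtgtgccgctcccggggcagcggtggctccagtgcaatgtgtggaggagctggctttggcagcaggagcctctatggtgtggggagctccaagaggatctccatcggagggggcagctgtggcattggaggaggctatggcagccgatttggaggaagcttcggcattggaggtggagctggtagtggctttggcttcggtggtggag
Of all 50-nt stretches of the annotated transcripts of each gene, 12.4% of Krt16, 13.9% of Krt14 and 3.99% of Krt17 also occur in another keratin, against 44.8% of Krt6a and 44.8% of Krt6b. For Krt10, Krt1, Krt77, Krt79 and Krt80 the share was 0%. A fragment inside such a stretch cannot be assigned to a gene from its sequence alone, so the split between Krt6a and Krt6b is uncertain.

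Keratins of the epidermis and the outer root sheath made up nearly all keratin FPKM in the tumors. The 47 genes summed to 460, 475 and 1220 FPKM in B16F1 libraries 1, 2 and 3 against 528 and 651 FPKM in the B16F1-CXCL5 pair. That was between 0.0763% and 0.202% of each library's summed FPKM, with the highest share in B16F1 library 3. To be tested a gene had to reach an FPKM of 1 in 2 or more of the 5 libraries, and 13 keratins did. The other 34 stayed below an FPKM of 1 in every library, and together they summed to between 1.47 and 2.87 FPKM per library.

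**Figure D1:**
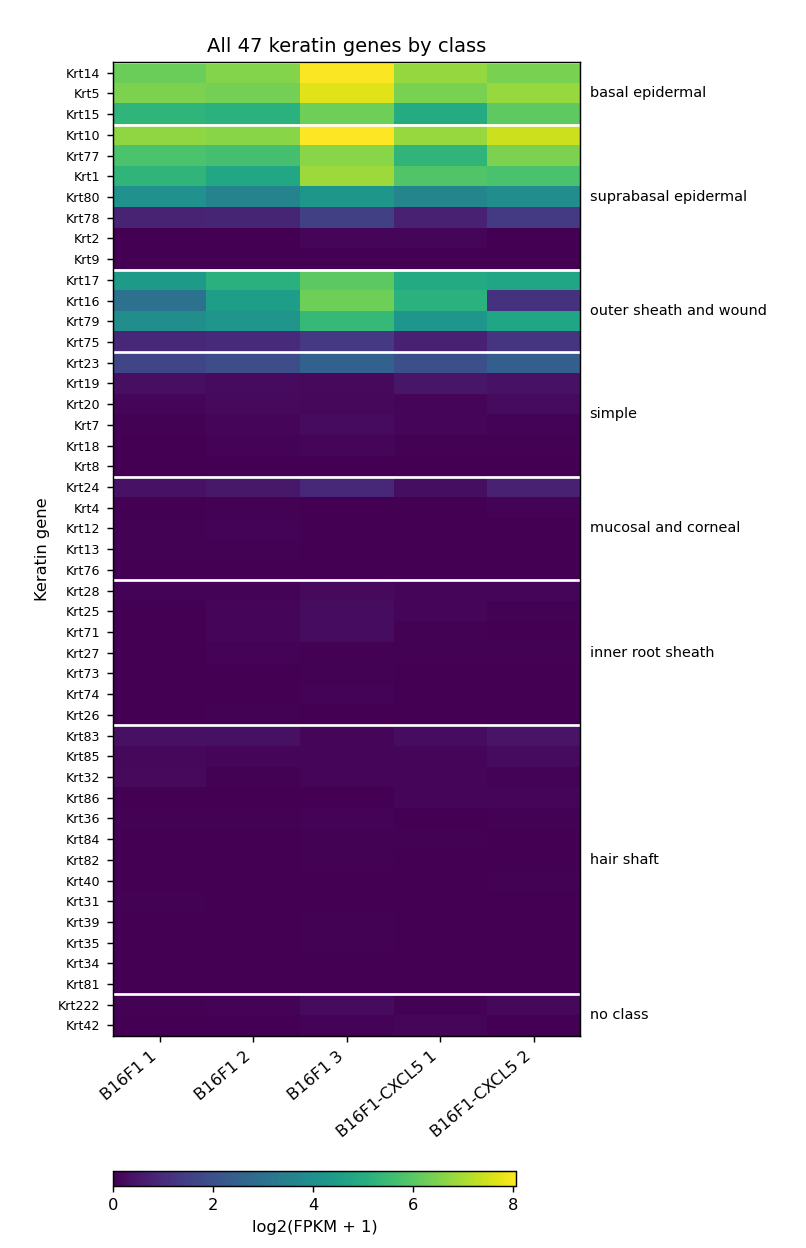
Level of each of the 47 keratin genes (rows, grouped by class and ordered by mean) in each library (columns), as log2(FPKM + 1) in color. Signal sits in the epidermal and outer sheath and wound classes and in Krt23, is highest in B16F1 library 3, and is near 0 in the inner root sheath and hair shaft classes.

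Basal keratins were abundant in all libraries. Krt14, the type I partner of basal cells, was at 75.5, 93.2 and 254 FPKM in B16F1 libraries 1 to 3 against 109 and 84.7 FPKM in the B16F1-CXCL5 pair. Krt5, its type II partner, was at 87.1, 82.1 and 201 FPKM against 85.8 and 112 FPKM. Krt15, a keratin of basal cells that is also known from the hair follicle bulge, was at 37.9, 34.2 and 76.1 FPKM against 30.0 and 65.0 FPKM. In each of these genes B16F1 library 3 was highest, and the groups overlapped. The 3 basal keratins together averaged 314 ± 188 FPKM with B16F1 and 243 ± 25.7 FPKM with B16F1-CXCL5 (SD, n = 3 and n = 2), a ratio of 0.775.

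Suprabasal keratins were as abundant. Krt10, which marks differentiating keratinocytes, was at 105, 98.0 and 264 FPKM in the B16F1 libraries against 110 and 173 FPKM in the B16F1-CXCL5 pair. Its type II partner Krt1 was at 37.2, 26.5 and 116 FPKM against 56.7 and 52.9 FPKM. Krt77, another type II keratin of skin, was at 54.0, 50.1 and 98.1 FPKM against 37.2 and 86.4 FPKM. The groups overlapped for each of these genes, with B16F1 library 3 highest again. Krt80, a type II keratin found across many epithelia, was at 15.7, 11.1 and 18.1 FPKM against 11.6 and 14.5 FPKM, and varied least of the tested keratins, with a highest value 1.62 times the lowest. Krt78 lay between 0.662 and 1.9 FPKM. Krt2 and Krt9, known from ear, tail and footpad skin of the mouse, stayed at or below 0.093 FPKM. The 7 suprabasal keratins averaged 299 ± 173 and 272 ± 79.6 FPKM (SD, n = 3 and n = 2), a ratio of 0.911.

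Keratins of the outer root sheath and of wounds held the widest range. Krt16, the type I keratin of activated keratinocytes, was at 7.27, 22.0 and 76.1 FPKM in the B16F1 libraries against 34.1 and 1.23 FPKM in the B16F1-CXCL5 pair. The groups overlapped, and among the 13 tested keratins the B16F1-CXCL5 libraries differed most from each other here, since library 1 was 27.8 times library 2. The full range over 5 libraries was 62.1-fold. Krt17, which shares the outer root sheath with Krt16, was at 19.8, 33.6 and 63.8 FPKM against 29.6 and 26.2 FPKM, a range of 3.23-fold. Krt79, known from the infundibulum and the duct of the sebaceous gland, was at 14.7, 17.4 and 41.4 FPKM against 17.6 and 26.0 FPKM. B16F1 library 3 was highest for both and the groups overlapped. Krt75, a keratin of the companion layer, lay between 0.658 and 1.5 FPKM. The 4 genes together averaged 99.8 ± 73.6 and 68.3 ± 19.2 FPKM (SD, n = 3 and n = 2), a ratio of 0.685. The log2 ratios of the means of summed FPKM, B16F1-CXCL5 over B16F1, were -0.37 for basal, -0.13 for suprabasal and -0.55 for outer sheath and wound keratins, and without B16F1 library 3 they were 0.25, 0.45 and 0.23.

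**Figure D2:**
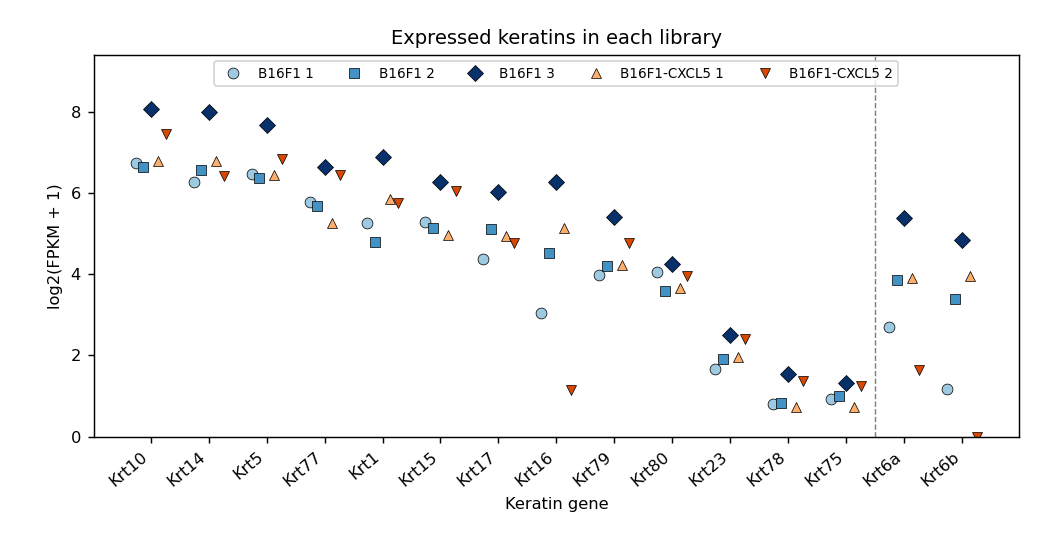
Levels as log2(FPKM + 1) of the 13 tested keratins and, right of the dashed line, of Krt6a and Krt6b, with 1 point per library. B16F1 library 3 is the highest point of each gene, and B16F1-CXCL5 library 2 is the lowest point of Krt16, Krt6a and Krt6b, with Krt6b listed at 0.

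Of the simple keratins only Krt23 passed the filter. Krt23, a type I keratin, was at 2.2, 2.75 and 4.70 FPKM in the B16F1 libraries against 2.90 and 4.30 FPKM in the B16F1-CXCL5 pair, which overlap. Krt8 was listed at 0 in 4 libraries and at 0.0217 FPKM in B16F1 library 3, about 1.1 fragments at the implied depth. Krt18, its partner, was listed at 0, 0.0557 and 0.081 FPKM against 0.0278 and 0.028 FPKM, at most about 2.88 fragments, so the pair was too low for a ratio. Krt20, a keratin of gut epithelium and Merkel cells, was at 0.0932, 0.149 and 0.124 FPKM against 0.0902 and 0.18 FPKM. Krt7 had at most 0.177 FPKM. Krt19, found in simple epithelia and in the hair follicle, was at 0.248, 0.19 and 0.154 FPKM against 0.407 and 0.317 FPKM, or roughly 6.08 to 15.4 fragments, and its groups did not overlap. Without the filter its unadjusted limma p was 0.0162 and its adjusted p was 0.479.

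Keratins of the growing hair were near the limit of detection. The 7 inner root sheath keratins in the table summed to 0.0579, 0.35 and 0.652 FPKM in the B16F1 libraries against 0.269 and 0.141 FPKM in the B16F1-CXCL5 pair. Krt71, a type II keratin of the inner root sheath, was at 0, 0.113 and 0.2 FPKM against 0.0365 and 0 FPKM. Krt25, a type I keratin of the same sheath, was at 0, 0.0757 and 0.196 FPKM against 0.0991 and 0.0252 FPKM. Krt28, another type I keratin there, was at 0.0579, 0.0579 and 0.141 FPKM against 0.0867 and 0.088 FPKM. These highest values were all in B16F1 library 3, within overlapping groups. The 13 hair shaft keratins summed to 0.649, 0.439 and 0.429 FPKM against 0.477 and 0.717 FPKM. Krt83, a type II keratin of the hair cortex, was at 0.295, 0.292 and 0.0844 FPKM against 0.196 and 0.353 FPKM. Krt85, also a type II hair keratin, was at 0.134, 0.0965 and 0.0758 FPKM against 0.0899 and 0.165 FPKM. Both were lowest in B16F1 library 3, where the tested keratins were highest. Krt32, a type I keratin of the hair cuticle, was at 0.148, 0.0246 and 0.0942 FPKM against 0.0708 and 0.0479 FPKM. Krt34 and Krt81 were listed at 0 in every library. Krt86, another hair keratin, was listed at 0 in the B16F1 libraries against 0.089 and 0.0914 FPKM in the B16F1-CXCL5 pair, about 4.33 and 4.58 fragments. Without the filter, Krt86 had an unadjusted limma p of 0.00096 and an adjusted p of 0.194. Of its 50-nt stretches, 40.5% occur in another keratin, mostly Krt81, so its values are uncertain.

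The remaining members were low as well. Of the 5 genes listed as mucosal and corneal, Krt24 was at 0.304, 0.439 and 0.897 FPKM against 0.226 and 0.665 FPKM, with B16F1 library 3 highest and the groups overlapping. Krt12, a keratin of the cornea, was at 0.0225, 0.0453 and 0.0218 FPKM against 0 and 0 FPKM. Krt4, of oral and esophageal epithelium, was at 0, 0.0389 and 0 FPKM against 0 and 0.0582 FPKM. Krt13, the partner of Krt4, was in the same low range, and Krt76 was listed at 0 throughout. Krt42 and Krt222 had at most 0.0849 and 0.183 FPKM. Of the 33 untested keratins with an annotated length, 22 had an estimated 5 fragments or fewer in every library, so any difference in them rests on very few fragments. Krtap genes, which encode the matrix proteins that fill the hair shaft, were low too, with 8 of 11 listed genes at 0 in all libraries and a highest value of 0.396 FPKM.

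Between the groups, 0 of the 13 tested keratins passed an adjusted p of 0.05, where 0.136% of 12533 tested genes did, 0.128% higher and 0.00798% lower in B16F1-CXCL5 tumors (limma on log2(FPKM + 1), B16F1-CXCL5 minus B16F1). None of the 13 had an unadjusted limma p under 0.05 either, against 8.97% of all tested genes, and their adjusted p-values ran from 0.823 to 0.998. The groups overlapped in each of the 13, so that 0 of 13 had groups apart, against 26.4% of all tested genes. Exact two-sided permutation p-values of the 13 genes lay between 0.5 and 1, where this design can give 0.1 at the smallest. The median log2 fold change of the 13 was -0.09, with 11 negative and 2 positive, beside -0.01 for all tested genes.

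The intervals of these differences were wide. On the log2 scale Krt14 differed by -0.33 (SE 0.51), with a 95% interval from -1.61 to 0.94 (limma adjusted p = 0.908). Krt10 had -0.02, with an SE of 0.47 and an interval from -1.17 to 1.14. Krt16 had -1.47 with an SE of 1.38 and an interval from -4.90 to 1.96 (limma adjusted p = 0.823). The narrowest interval among the 13 belonged to Krt80, from -0.69 to 0.35. Without B16F1 library 3, 0 of 11 keratins passed and the smallest limma adjusted p was 0.283, for Krt1, while 9 of 11 log2 fold changes were then positive, with a median of 0.21. Krt14 and Krt10 turned to 0.19 and 0.44. Krt16 kept its sign at -0.64 without B16F1 library 3 and turned to 0.52 without B16F1-CXCL5 library 2.

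**Figure D3:**
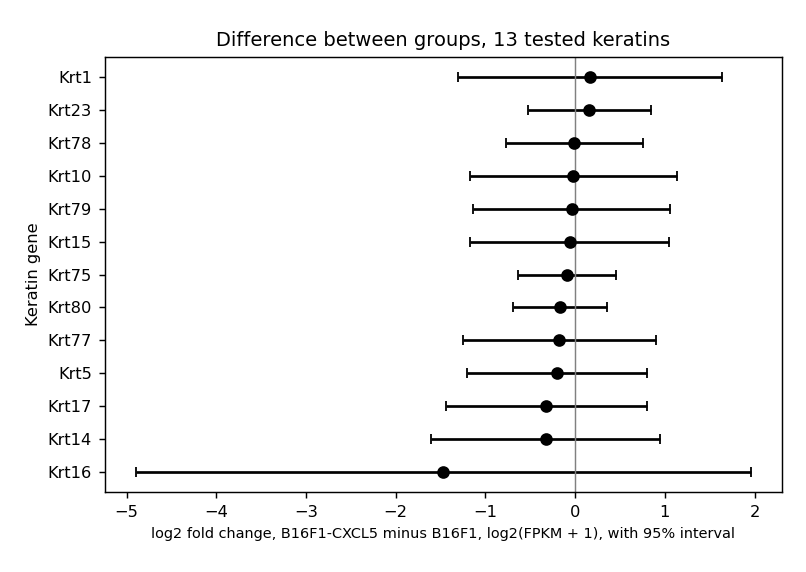
Log2 fold change on the log2(FPKM + 1) scale (points) with 95% limma intervals (bars) for the 13 tested keratins, positive where B16F1-CXCL5 is higher. Every interval crosses 0, and that of Krt16 is the widest, from -4.90 to 1.96.

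The tested keratins shared their highest library. All 13 had their highest value in B16F1 library 3, which was the highest library for 21.2% of all tested genes. The level in that library was 1.37 to 4.72 times the mean of the other 4, with a median of 2.17 over the 13 genes and 0.982 over all tested genes. Krt16 and Krt14 had the largest such ratios, 4.72 and 2.80, and Krt80 had the smallest. Within the B16F1-CXCL5 pair, library 2 was 2.16 times library 1 for Krt15, 2.11 times for Krt75, 2.32 times for Krt77 and 2.39 times for Krt78, while for Krt14 and Krt17 it was 0.778 and 0.887 times library 1. These genes were named after their values were seen.

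Partner ratios within a library do not depend on how libraries are scaled. Krt5 divided by Krt14 was 1.15, 0.881 and 0.792 with B16F1 against 0.788 and 1.32 with B16F1-CXCL5, a range of 1.67-fold. Krt1 divided by Krt10 was 0.355, 0.27 and 0.441 against 0.516 and 0.305. Neither ratio separated the groups, and the type I and type II partners, which lie on chromosomes 11 and 15, were all highest in B16F1 library 3. The ratio of Krt17 to Krt14 stayed between 0.252 and 0.361. That of Krt15 to Krt14 was 0.502, 0.366 and 0.3 against 0.276 and 0.767. Ratios other than Krt5 to Krt14 and Krt1 to Krt10 were chosen after the values were seen.

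Krt16 did not keep a steady ratio to the basal keratins. Krt16 divided by Krt14 was 0.0963, 0.236 and 0.3 with B16F1 against 0.313 and 0.0145 with B16F1-CXCL5, a range of 21.6-fold. B16F1-CXCL5 library 2 was lowest and B16F1 library 1 next, while the other 3 libraries lay close together. Levels were ordered as those of Krt16 in Krt6a, a type II partner of Krt16 that the naming rule leaves out for its letter, at 5.47, 13.6 and 40.6 FPKM against 14.1 and 2.11 FPKM. Krt6b was at 1.25, 9.39 and 27.8 FPKM against 14.4 FPKM in B16F1-CXCL5 library 1, and was listed at 0 in B16F1-CXCL5 library 2. Neither Krt6a nor Krt6b passed limma between the groups (adjusted p = 0.78 and 0.883). Krt33a and Krt33b, the other names with a letter, were at or below 0.0258 FPKM.

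**Figure D4:**
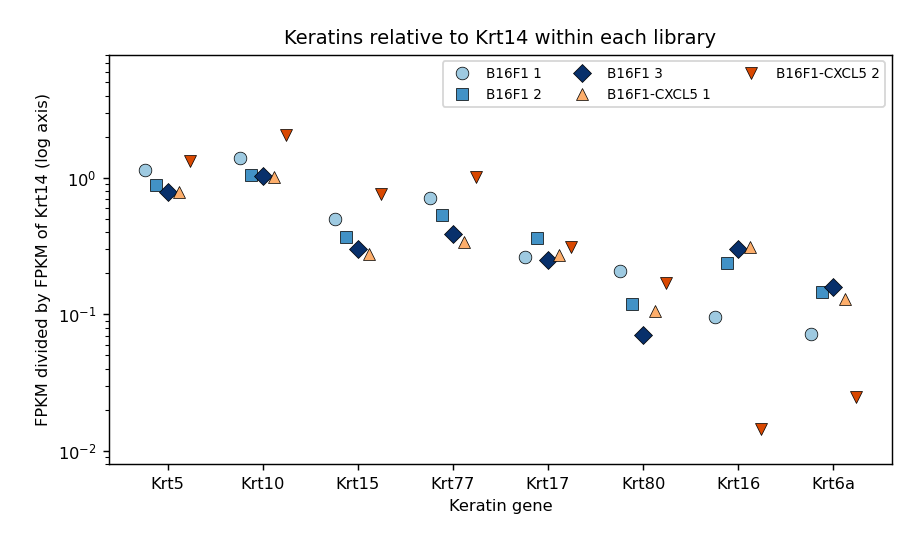
FPKM of 8 keratins divided by the FPKM of Krt14 in the same library, on a log axis, with 1 point per library. Krt17 stays between 0.252 and 0.361, while Krt16 and Krt6a are lowest in B16F1-CXCL5 library 2 and next lowest in B16F1 library 1.

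The order of the libraries in Krt16, from B16F1-CXCL5 library 2 as the lowest through B16F1 libraries 1 and 2 and B16F1-CXCL5 library 1 to B16F1 library 3, was shared by 0.981% of all tested genes. Among the tested cornified envelope genes 3 of 18 had it, namely Sprr1a, Sprr1b and Sprr2h, small proline-rich proteins that are cross-linked into the envelope of squamous cells. Sprr1b was at 1.85, 3.94 and 25.4 FPKM in the B16F1 libraries against 6.36 and 0.374 FPKM in the B16F1-CXCL5 pair. Sprr1a was at 10.7, 19.5 and 44.9 FPKM against 20.8 and 7.30 FPKM. Krt6a and Krt6b had it, and the other 12 tested keratins and the 20 tested junction and basement membrane genes did not. This order was looked for after the values of Krt16 were seen, and it is given as a description.

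Most other genes of keratinocytes also had their highest level in B16F1 library 3. The 21 cornified envelope genes found summed to 310, 384 and 903 FPKM in the B16F1 libraries against 370 and 517 FPKM in the B16F1-CXCL5 pair, with 17 of 18 tested members highest in B16F1 library 3. Hrnr was the exception, at 0.455, 0.502 and 1.08 FPKM against 0.821 and 1.11 FPKM. Lor, the main protein of the envelope, was at 35.2, 43.2 and 118 FPKM against 40.4 and 80.4 FPKM. Krtdap, a secreted protein of differentiating keratinocytes, was at 97.5, 126 and 254 FPKM against 106 and 152 FPKM. The 22 junction and basement membrane genes summed to 140, 140 and 305 against 150 and 192 FPKM, with 19 of 20 tested members highest in B16F1 library 3. The exception was Dst, a linker of hemidesmosomes that other cells also use, at 18.6 to 21.1 FPKM. Of the 13 keratinocyte regulators, 8 of 9 tested were highest there, among them Trp63, the p63 factor of stratified epithelia, at 2.19, 2.40 and 5.38 FPKM against 2.59 and 3.53 FPKM. Tfap2a, a factor that melanoma cells express too, was the exception at 25.6 to 42.2 FPKM. None of the tested members of these 3 lists passed limma between the groups, and their median log2 fold changes were -0.03, -0.08 and 0.04.

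The summed FPKM of muscle, adipocyte, sebaceous gland, fibroblast and hair follicle genes was also highest in B16F1 library 3, by a small margin for fibroblasts. The 12 skeletal muscle genes, which stand for the thin muscle under the skin and for body wall muscle, summed to 687, 685 and 2050 FPKM against 612 and 1590 FPKM, with Acta1, skeletal actin, at 238, 255 and 769 FPKM against 247 and 538 FPKM. Within the B16F1-CXCL5 pair the muscle sum was higher in library 2, as were the sums of all keratins, at 528 and 651 FPKM, and of basal keratins, at 225 and 261 FPKM. Of the 13 tested keratins, Krt1, Krt14, Krt16 and Krt17 were lower in B16F1-CXCL5 library 2 than in library 1, and the others were higher. The 10 adipocyte genes summed to 199, 210 and 348 against 229 and 241 FPKM. Fabp4 had the highest mean of that list, at 116, 113 and 162 against 129 and 97.6 FPKM. Adipoq was at 6.3, 5.67 and 14.4 against 6.19 and 9.31 FPKM. The 9 sebaceous gland genes summed to 121, 103 and 165 against 119 and 117 FPKM. Plin2 made up most of that sum, at 75.2, 65.1 and 88.9 against 71.6 and 62.5 FPKM. Soat1 was next, at 34.5, 24.0 and 28.9 against 32.1 and 33.5 FPKM. It peaked in B16F1 library 1, while 7 of 8 tested members peaked in B16F1 library 3. Scd3, a desaturase of sebocytes, was at 2.47, 3.02 and 12.4 FPKM against 2.68 and 5.14 FPKM. The 8 fibroblast genes summed to 1120, 932 and 1900 against 1620 and 1860 FPKM. The 13 hair follicle genes summed to 7.79, 5.72 and 11.9 FPKM against 5.81 and 8.75 FPKM. Sox9, a factor of the outer root sheath and bulge, had the highest mean among them and peaked in B16F1 library 1, at 4.46, 2.43 and 3.22 FPKM against 2.05 and 2.82 FPKM. Gata3, a factor of the inner root sheath and epidermis, was at 1.72, 1.47 and 4.65 FPKM against 1.67 and 3.05 FPKM. Lgr5 and Lef1 peaked in a B16F1-CXCL5 library, at 0.818 and 0.201 FPKM. The 6 Merkel cell genes found summed to between 0.238 and 0.564 FPKM. The melanocyte lineage sum was lowest in B16F1 library 3, at 0.835 times the mean of the other 4. None of the tested genes of these lists passed limma between the groups, and their part in the keratin levels was not tested.

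**Figure D5:**
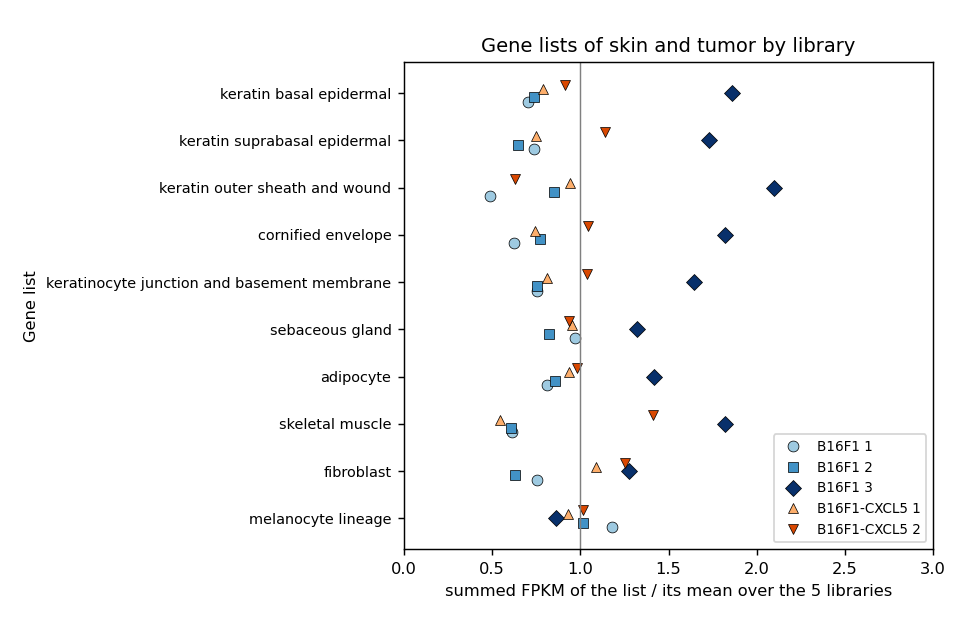
Summed FPKM of 10 gene lists in each library, divided by the mean of that list over the 5 libraries; hair shaft keratins and other low lists are not plotted. Of the lists plotted, B16F1 library 3 is highest for all but the melanocyte lineage list, where it is lowest. B16F1-CXCL5 library 2 is next highest for basal and suprabasal keratins and for the cornified envelope, junction, adipocyte, skeletal muscle and fibroblast lists.

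Between the groups, neutrophil genes took another course than the keratins. The 11 listed genes summed to 16.9, 20.2 and 43.3 FPKM in the B16F1 libraries against 742 and 807 FPKM in the B16F1-CXCL5 pair, and 5 of 8 tested members were called higher with limma, beside 0.128% of all tested genes. S100a8 and S100a9 made up most of the B16F1-CXCL5 sums. Lcn2 and Mmp8 were not called (limma adjusted p = 0.404 and 0.316), and Camp and Ngp had at most 0.095 and 0.0676 FPKM. S100a8, which activated keratinocytes can also make, was at 3.83, 6.12 and 16.2 FPKM against 356 and 382 FPKM (limma adjusted p = 0.0403). S100a9, its partner, was at 3.46, 4.9 and 18.0 FPKM against 314 and 344 FPKM (limma adjusted p = 0.0674). The B16F1-CXCL5 libraries were close to each other in S100a8 and far apart in Krt16, at 34.1 and 1.23 FPKM. Within the B16F1 group, S100a8 and S100a9 rose from library 1 to library 3, as did Krt16, at 7.27, 22.0 and 76.1 FPKM. That order was not particular to Krt16. Krt14, Krt17, Krt23, Krt75, Krt78 and Krt79 had it too, the other tested keratins did not, and its share over all genes was not computed. Which cells made the S100a8 RNA was not tested. Csf3r, the receptor for the growth factor of neutrophils, was at 0.727, 0.777 and 1.06 FPKM against 18.9 and 24.1 FPKM. The other called genes were Cxcr2, a receptor for CXCL5, Mmp9, a gelatinase, and Retnlg, a resistin-like protein, with log2 fold changes of 1.64, 2.40 and 3.84.

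RefSeq promoter windows, which run from 250 nt before to 50 nt after an annotated start, were found for 33 of the 47 keratins in the GRCm38.p6 table. Those of Krt10 and Krt5 are shown as abundant type I and type II genes of different clusters, and that of Krt71 as a hair keratin near 0. The window of Krt10 is chr11:99389315-99389614, that of Krt5 is chr15:101712856-101713155 and that of Krt71 is chr15:101743048-101743347, all on the minus strand, and capitals mark TATAAA, a form of the TATA box.
Krt10: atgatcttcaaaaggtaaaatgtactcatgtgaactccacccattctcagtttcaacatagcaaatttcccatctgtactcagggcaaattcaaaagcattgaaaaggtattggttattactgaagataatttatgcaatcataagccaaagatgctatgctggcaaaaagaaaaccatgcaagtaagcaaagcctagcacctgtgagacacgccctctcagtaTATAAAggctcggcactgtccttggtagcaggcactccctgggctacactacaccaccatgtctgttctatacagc
Krt5: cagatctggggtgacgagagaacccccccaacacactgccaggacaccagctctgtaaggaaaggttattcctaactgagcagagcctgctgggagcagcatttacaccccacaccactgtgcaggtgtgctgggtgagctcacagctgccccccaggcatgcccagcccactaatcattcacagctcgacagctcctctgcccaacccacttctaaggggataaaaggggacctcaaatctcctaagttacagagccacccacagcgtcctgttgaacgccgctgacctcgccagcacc
Krt71: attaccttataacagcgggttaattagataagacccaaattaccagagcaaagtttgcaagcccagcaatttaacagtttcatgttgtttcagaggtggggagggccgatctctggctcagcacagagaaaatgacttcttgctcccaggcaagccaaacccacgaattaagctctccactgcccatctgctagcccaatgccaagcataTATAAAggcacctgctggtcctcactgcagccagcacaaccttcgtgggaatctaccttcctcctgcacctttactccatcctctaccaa
The letters TATAAA, searched on both strands, were in the windows of 12.5% of the 8 tested keratins with a window, Krt10 alone, and in 61.5% of the 26 windows of untested keratins, against 13.6% of all 32851 windows. Close variants of these letters, as in ggataaaagg of the Krt5 window, were not counted. The tested keratins Krt1, Krt15, Krt16, Krt17 and Krt80 had no window. The window of Krt14, which holds no TATAAA, lies inside the gene as GENCODE M21 places it (minus strand, end at 100207548), at chr11:100205981-100206280, so it is not the window at that annotation's 5′ end. TGANTCA, the site letters of AP-1 factors, was in 0% of the 8 windows of tested keratins and in 7.69% of the 26 windows of untested keratins. Of all windows, 7.81% had it, and 8 windows are too few to show a shortage. A match describes the letters in these windows and shows no bound factor.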

How the data were processed

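RNA was measured in whole primary tumors by poly(A)+, strand-marking RNA sequencing on a HiSeq2000, with RNA integrity numbers from 8.7 to 9.5, per the labels' protocols. The authors deposited 1 table of FPKM values, with 1 column per library matched by title. The submitters' processing notes name TopHat2 2.0.10, Bowtie 1.0.0, Cufflinks 2.2.1 and GRCm38. How strand and scaling were set, and which annotation was used, is not given in the sources used here.

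All 12533 genes that reached an FPKM of 1 in 2 or more libraries were fitted together as log2(FPKM + 1) by limma 3.58.1 (R 4.3.3) with an intensity trend, with Benjamini-Hochberg adjustment and a threshold of 0.05. This scale understates the change of low genes. The fit was tested on simulated data. Depth was estimated from the first step of low FPKM values over 3059 genes with a single transcript of 800 to 6000 nt, with an assumed fragment of 200 nt, and estimated fragments follow from it. They are estimates, not counts. Lengths and coordinates are from GENCODE M21 (GRCm38). Summed FPKM was given no test, and permutation p-values of the ratios are not reported here.

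The members, keratin classes and gene lists were chosen with earlier results of these data known. Values in every library were given for the 3 keratins of highest mean in each class, for the partners Krt1, Krt5, Krt8, Krt10, Krt14 and Krt18, for keratins with a letter in the symbol, for Cxcl5, S100a8 and S100a9, and for some of the up to 4 genes of highest mean in other lists. Other named genes, such as Krt80, Krt86, Sprr1a and Sprr1b, were chosen after their values were seen. The symbols Krt72, Krt87, Flg and Piezo2 were not analysed here. Alternatives were the pseudocount, the filter, the scaling, the trend, library weights, a replicate block and leaving out each library.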

Additional observations from a re-analysis of the deposited data

How the results depend on the processing

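In each of the 14 alternative settings 0 keratins passed limma, including 0 of 44 without the filter, where 2 had an unadjusted p under 0.05 (Krt19 and Krt86; smallest adjusted p 0.194). The unadjusted count was 3 of 13 with the replicate block (smallest limma adjusted p 0.162) and 1 of 11 without B16F1 library 3. It was 0 in the other settings with more than 1 library per group. The unadjusted counts over all genes were 1567 of 18751 without the filter, 1033 of 12533 with the block and 1211 of 12329 without B16F1 library 3. Over all genes, 17 calls became 8 (pseudocount 0.1), 7 (filter on a mean FPKM of 3), 39 (no trend), 31 (library weights) and 2 to 34 (1 library left out, highest without B16F1 library 3 and lowest without B16F1-CXCL5 library 2). Replicate numbers as a block gave 46 calls over all genes and 0 keratins. Deviations from the group mean in libraries with the same number had correlations of -0.0283 and -0.019 over 12533 genes. The B16F1-CXCL5 deviations mirror each other, so these values cannot show whether a shared number stands for a shared batch. The signs of the keratin log2 fold changes, none past the threshold, were not stable. Under the replicate block, which compares the same libraries as leaving out B16F1 library 3, they turned to 0.21 for Krt5, 0.44 for Krt10, 0.19 for Krt14, 0.29 for Krt15, 0.10 for Krt17, 0.02 for Krt75, 0.13 for Krt77, 0.23 for Krt78 and 0.40 for Krt79. Library weights turned Krt10 to 0.13, Krt15 to 0.05, Krt78 to 0.07 and Krt79 to 0.08, and the same sum per library turned Krt10 to 0.03, Krt78 to 0.02 and Krt79 to 0.01. With 1 library left out, the log2 fold changes ranged from -0.26 to 0.78 for Krt1, -0.43 to 0.21 for Krt5, -0.34 to 0.44 for Krt10, -0.67 to 0.19 for Krt14, -0.61 to 0.48 for Krt15, -3.46 to 0.52 for Krt16, -0.72 to 0.10 for Krt17, -0.07 to 0.39 for Krt23, -0.17 to 0.17 for Krt75, -0.77 to 0.42 for Krt77, -0.13 to 0.31 for Krt78 and -0.32 to 0.40 for Krt79, and stayed negative for Krt80, from -0.35 to -0.02. The cause was not tested. With a B16F1-CXCL5 library left out, the lone library is assumed to vary like the B16F1 group. Krt75 and Krt78 missed the filter when it asked for a mean of 3 FPKM, and without B16F1 library 3 or B16F1-CXCL5 library 2. With 1 library left out, the log2 ratios of summed FPKM ran from -0.61 to 0.25 for basal and -0.47 to 0.45 for suprabasal keratins. They ran from -0.91 to 0.23 for outer sheath and wound and -0.07 to 0.53 for simple keratins. Each range crosses 0. The moves were under 1 SD of the libraries for each of the 4 expressed classes, but that SD includes B16F1 library 3. Leaving that library out turned the basal, suprabasal and outer sheath and wound ratios from negative to positive.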
